A study of Rattus norvegicus with 2 samples.

Results

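Genes of transforming growth factor beta (TGF-beta), activin and bone morphogenetic protein (BMP) signalling were examined in small mesenteric arteries, resistance vessels that feed the intestine. The set holds 10 genes: the ligand genes Tgfb1, Tgfb2, Tgfb3, Inhba, Inha and Bmp4, the receptor genes Tgfbr1, Tgfbr2 and Tgfbr3, and Fst, which encodes the ligand trap follistatin. Its members are all probe sets whose only gene symbol in the platform annotation is one of these, and 14 such probe sets of 9 genes were found among 7018 probe sets that name 4737 genes. No probe set is named for Tgfbr2 alone, so it is not analysed here.

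The arteries, first and second order branches, came from rats that had a sham operation and from rats made portal hypertensive by partial ligation of the portal vein, which raises the pressure in the veins of the gut before the blood reaches the liver. Each group was 1 pool of RNA from 20 rats, called the sham pool and the ligated pool here, and was read on 1 Affymetrix RG_U34A array. The sources used here do not give the strain, sex, age or time after the operation. With 1 pool per group there is no replicate check, no standard error and no p-value, and every difference compares these 2 pools.

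TGF-beta ligands are secreted as latent precursors, and after release they assemble a complex of type I and type II receptor kinases, here encoded by Tgfbr1 and Tgfbr2, that phosphorylates SMAD transcription factors. Betaglycan, the product of Tgfbr3, is a co-receptor that binds TGF-beta and inhibin and passes TGF-beta2 on to the type II receptor. Activins are dimers of inhibin beta chains such as the product of Inhba, inhibins pair a beta chain with the alpha chain from Inha, and follistatin holds activins away from their receptors. In arteries these signals are known for their part in smooth muscle differentiation, matrix production and the upkeep of the endothelium.

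Every ligand gene with a value had a lower signal in the ligated pool, by 1.12-fold (Inha) to 1.40-fold (Inhba). Of all genes with a value, 53.2% were lower. None of the 5 ligand genes (0 of 5) reached 1.5-fold lower, which 5.04% of all genes with a value did. The only receptor gene with a value, Tgfbr3, had a higher signal, by at least 1.15-fold, and Tgfbr1 was below the floor in both pools. Fst was lower by 1.26-fold on the 1 probe set that could be read. Fewer cells of a type and less RNA per cell cannot be told apart in RNA from whole arteries.

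Values are linear signal intensities as deposited. A floor of 330.9 intensity units, the 40th percentile of both arrays together, stands in for detection calls, and values under it were raised to it ahead of the log2 step. Being above it on both arrays makes a probe set measured, and being above it on a single array gives only a bound. Of the 14 probe sets, 8 were measured, 1 gave a bound and 5 were below the floor on both arrays. Signals of different probe sets depend on their probes and are not compared with each other, so ligands and receptors are compared by their ratios between the pools. The ratio of a gene is the log2 of ligated over sham, as the median of those probe sets of the gene that are above the floor in either pool.

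**Figure D1:**
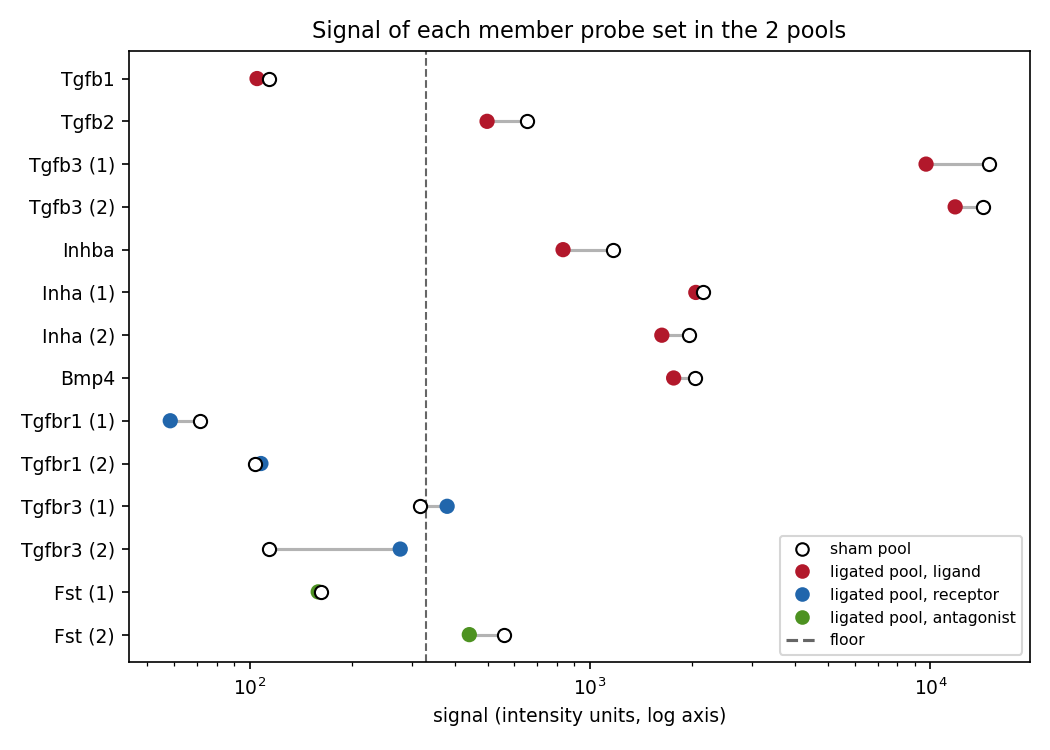
Signal of the 14 probe sets in the sham pool (open circles) and the ligated pool (filled circles, coloured by role), in intensity units on a log axis, with the floor of 330.9 as a dashed line. Where a gene has several probe sets they are numbered in the order in which the text gives them. The 7 measured ligand probe sets all lie to the left of their sham value, and the receptor probe sets lie below the floor except the first of Tgfbr3, which crosses it.

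Tgfb3 encodes the isoform with known roles in palate and lung development and is made by mesenchymal cells. On its first probe set the signal was 14838.2 in the sham pool against 9705.6 in the ligated pool, which is a log2 ratio of -0.61. Its second, designed on the same transcript sequence, had 14289.1 and 11816.6, a log2 ratio of -0.27. Both were lower, but by different amounts: the first passed 1.5-fold, at 1.53-fold, and the second, at 1.21-fold, did not. The gene ratio was -0.44, or 1.36-fold lower, and 9.55% of the 3351 genes with a value had a ratio this low or lower.

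Tgfb2, the isoform that needs betaglycan for efficient receptor binding, gave 652.3 in the sham pool against 498.5 in the ligated pool. This is a log2 ratio of -0.39, or 1.31-fold lower, on its only probe set. Tgfb1, the isoform released by platelets and by most cells of injured tissue, had 113.8 and 105.2 on its only probe set. Both values are below the floor, so no ratio is given for Tgfb1, and its direction could not be read at this sensitivity.

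Inhba, the inhibin beta A chain gene that makes activin A, had the lowest ratio of the set in the main processing. Its signal was 1170.4 for sham and 833.4 for ligated rats, a log2 ratio of -0.49, and 7.76% of genes with a value had a ratio this low or lower. Under some other processing, such as quantile normalization, Tgfb3 was lower (-0.44 against -0.42 for Inhba). Inha, the inhibin alpha chain gene, had 2147 and 2045.4 on its first probe set, which by its name may share probes with other transcripts, and 1948.8 and 1625.4 on its second. The log2 ratios were -0.07 and -0.26, and the gene ratio of -0.17 was the smallest in size among the ligands. Both chain genes of inhibin A thus had the lower signal in the ligated pool. Bmp4, a ligand of the BMP branch that acts through SMADs 1, 5 and 9, had 2034.1 and 1760.7, a log2 ratio of -0.21.

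Fst had 162.6 and 159.1 on its first probe set, both below the floor, and 557.8 and 442.1 on its second. The measured probe set gave a log2 ratio of -0.34. The genes of activin A and of its antagonist therefore had ratios of the same sign, and a difference between the 2 ratios was not tested.

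Receptor signals were near or under the floor. Tgfbr1, the type I receptor kinase gene, had 71.5 and 58.5 on its first probe set and 104 and 108 on its second, sham first. Tgfbr3 had 317.6 and 380.5 on its first probe set, which crossed the floor in the ligated pool only, and 114.3 and 277.1 on its second, below the floor in both. The first probe set of Tgfbr3 gave the only bound, a log2 ratio of at least 0.20, and 21.3% of genes with a value had a ratio this high or higher. The direction of the second could not be read at this floor. At a floor set to the 20th percentile, Tgfbr3 had a ratio of 0.77, past 1.5-fold, as the median of its 2 probe sets. There the second probe set passed 1.5-fold and the first did not. The second may by its name share probes with other transcripts, and its sham signal of 114.3 is close to that floor of 106.4.

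The median log2 ratio was -0.39 over the 5 ligand genes with a value and at least 0.20 for the 1 receptor gene, a difference of -0.59 in which the receptor side is a bound from 1 probe set. Over all 3351 genes with a value the median was -0.02, 53.2% of ratios were below 0, 46.8% above 0, and 8.18% were at least 1.5-fold apart in either direction (5.04% lower, 3.13% higher). The ligands thus lay on the side where 53.2% of genes lie, and 0 of the 7 members with a value were 1.5-fold apart. Of the 8 measured member probe sets all 8 had ratios below 0, against 53.1% of all 4960 measured probe sets, and 1, the first of Tgfb3, was at least 1.5-fold lower, against 5.38%.

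The spread between probe sets of a gene served as the measure of error. Probe sets of a gene share the same pools and arrays, so it says nothing of the spread between animals, labellings or arrays. Within 789 such genes, with 1801 probe sets, the SD of the ratios was 0.30. Split in 3 equal groups by mean level, it was 0.36 for the dimmest genes (421 to 1320 intensity units), 0.29 for the middle group and 0.23 for those above 3550. Tgfb3 lies in the highest range, and its ratio of -0.44 was larger in size than 0.23. Inhba and Tgfb2 lie in the lowest range, and their ratios of -0.49 and -0.39 were larger in size than 0.36, while that of Fst, -0.34, was not. After quantile normalization, and likewise with the loess trend removed, the Tgfb2 ratio was -0.31, within 0.36. The ratios of Inha and Bmp4 were within the SD of 0.29 of their range.

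**Figure D2:**
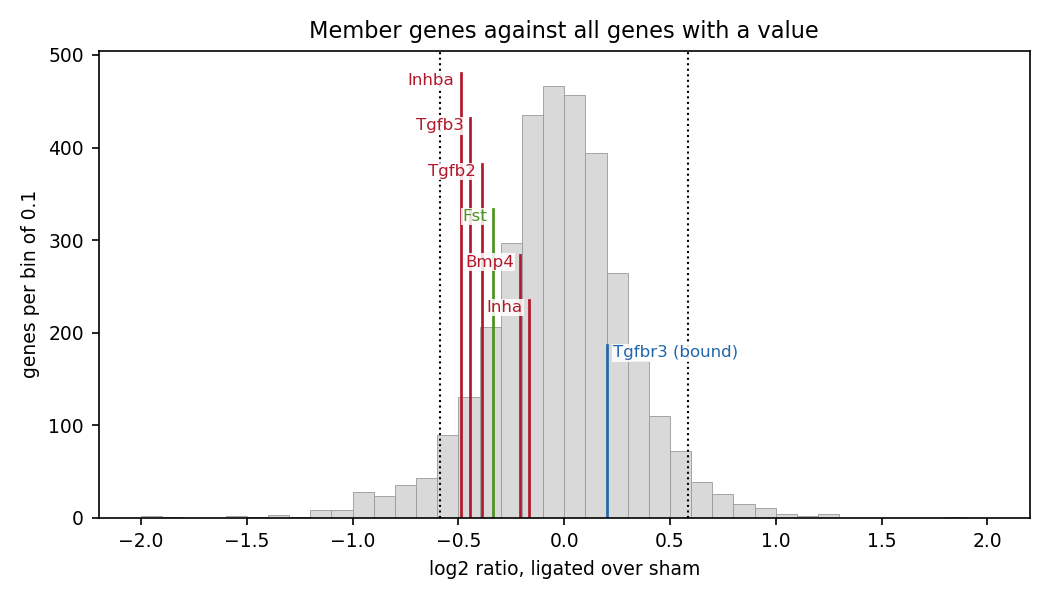
Distribution of the log2 ratio of ligated over sham for the 3351 genes with a value (grey bars, number of genes per bin), with the 7 members that have a value as vertical lines coloured by role and 1.5-fold as dotted lines. The 5 ligand genes and Fst lie between -0.49 and -0.17, inside the dotted lines, and Tgfbr3, a bound, lies at 0.20.

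Promoter sequence is shown for Inhba and Tgfb3, the ligand genes with the lowest ratios, and for Tgfbr3, the receptor gene with a ratio above 0, as context for members that differed in direction. Each run is the 250 bases before the annotated start, 5′ to 3′ on the gene's strand, from RefSeq on the rat assembly GRCr8, and capitals mark the motifs found. By symbol 9 of the 10 members matched an entry, all but Fst.
Inhba (chr17:53804509-53804758, minus strand): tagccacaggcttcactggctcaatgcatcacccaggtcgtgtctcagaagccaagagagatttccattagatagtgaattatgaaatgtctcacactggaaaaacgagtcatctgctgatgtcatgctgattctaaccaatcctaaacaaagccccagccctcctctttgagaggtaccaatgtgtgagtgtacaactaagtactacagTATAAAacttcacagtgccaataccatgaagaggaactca
Tgfb3 (chr6:111456947-111457196, minus strand): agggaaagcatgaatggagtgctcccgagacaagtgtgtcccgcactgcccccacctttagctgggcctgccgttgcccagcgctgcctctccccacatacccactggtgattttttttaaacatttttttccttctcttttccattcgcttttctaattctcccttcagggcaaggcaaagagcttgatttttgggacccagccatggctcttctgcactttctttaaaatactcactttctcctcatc
Tgfbr3 (chr14:2634044-2634293, plus strand): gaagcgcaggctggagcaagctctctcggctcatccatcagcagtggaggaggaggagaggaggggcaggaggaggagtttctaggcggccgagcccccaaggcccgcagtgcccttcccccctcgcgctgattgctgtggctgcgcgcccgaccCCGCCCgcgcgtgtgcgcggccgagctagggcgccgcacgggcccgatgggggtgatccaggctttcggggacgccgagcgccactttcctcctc

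The windows were searched on both strands for 5 motifs: the cyclic AMP response element (TGACGTCA), the AP-1 site (TGANTCA), a SMAD element (CAGACA), the GC box (GGGCGG) and the TATA box (TATAAA). Inhba held 1 TATA box, 40 to 35 bases before the start, and Tgfb3 held none of the 5. Tgfbr3 held 1 GC box on the other strand. Among the other members, Bmp4 held 3 GC boxes, 2 of them overlapping, and 1 SMAD element, Inha 1 SMAD element, Tgfbr1 3 GC boxes and Tgfbr2 1, and Tgfb1 and Tgfb2 held none. Of the 33469 rat promoters of this length, 1.59% held the cyclic AMP response element, 6.34% the AP-1 site, 17.2% the SMAD element, 30.5% the GC box and 12.9% the TATA box. The G and C content was 43.6% for Inhba and 48.8% for Tgfb3, and 71.2% for Tgfbr3 and 75.6% for Tgfbr1. For the others it was 66.4% for Bmp4, 61.6% for Tgfb2, 60% for Tgfb1, 58.4% for Inha and 58% for Tgfbr2. The values of ligand and receptor genes thus overlapped. A match describes these letters only.

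The other genes of the pathway were read from 5 lists of 120 genes, of which 76 had a probe set and 53 a value. Of these, 28 had ratios below 0 and 25 above 0, the median was -0.04, and 3 were at least 1.5-fold apart, 1 lower and 2 higher, against 8.18% of all genes. As a whole the lists lay near the median of all genes, -0.02.

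Among 18 other ligand genes, 11 had a probe set and 3 a value. Gdf10, a BMP-related ligand, had 373.4 for sham and 543.7 for ligated rats, a log2 ratio of 0.54 and opposite in sign to the ligands of the set. Amh, the anti-Müllerian hormone gene, had 1264.5 and 1011 and a log2 ratio of -0.32. Bmp6 had 2374.8 and 2168.3 on its measured probe set (-0.13). Its other probe set, with 392.6 and 239.1, gave a bound of at most -0.25, and the gene ratio was -0.19. The 8 others with a probe set, among them Bmp2, Bmp7 and Inhbb, were below the floor in both pools.

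Of 13 other receptor genes, 8 had a probe set and 5 a value, with a median of -0.04. Acvrl1, a type I receptor of endothelial cells, had 1043.5 and 1279.9, a log2 ratio of 0.29. Bmpr1a, a type I receptor for BMP4, had 2790.9 and 2261.1, a log2 ratio of -0.30. Among the activin receptor genes, Acvr2b had 3066.4 and 2595.3 on its measured probe set (-0.24), Acvr1 384.8 and 374 (-0.04) and Acvr1b 514.2 and 527 (0.04), and both probe sets of Acvr2a were below the floor. These 5 receptors went both ways, 3 below 0 and 2 above it. No probe set was named for Eng or Bmpr2.

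Extracellular control genes, which store, free or trap the ligands, had a median of -0.08 over 14 genes with a value, 8 below 0 and 6 above it. Furin, the protease that cuts the precursors of TGF-beta and activin, was past 1.5-fold as a gene, at -0.59, but its probe sets disagreed. The first had 847.2 and 346.2 (-1.29) and the second 1629.3 and 1756.9 (0.11), so the direction of Furin was not settled. Bgn, the gene of the matrix proteoglycan biglycan, which binds TGF-beta, was lower on both probe sets, with 14426.2 and 11483.7 on one and 1996.8 and 1265.4 on the other, and a gene ratio of -0.49. Plau, the urokinase gene, had 926.1 and 1191.2 (0.36), and Nbl1, a BMP antagonist gene, 679.2 and 558.9 (-0.28). Ltbp1, the gene of the protein that tethers latent TGF-beta to the matrix, had 17596.8 and 16434.9, a log2 ratio of -0.10.

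Intracellular genes had values for 5 of the 7 with a probe set, and none was 1.5-fold apart. Smad4, the partner shared by the TGF-beta and BMP branches, had 1238.6 and 930.9, a log2 ratio of -0.41. Smad2, a mediator of TGF-beta and activin, had 0.13, 0.04 and -0.20 on its 3 probe sets. Smad3, its close relative, had 140.5 for sham and 394.9 for ligated rats, a bound of at least 0.26. Smad9, a mediator of BMP signals, had 429.2 and 350.4 (-0.29), and Fkbp1a, whose product binds type I receptors, had -0.05 over 4 probe sets. Smad7, the inhibitory SMAD that TGF-beta induces, was below the floor in both pools, with 104 and 137.3.

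Genes that TGF-beta or BMP is known to induce or repress went both ways. Of 33, 26 had a value, 12 were below 0 and 14 above 0, and the median was 0.06 beside -0.02 for all genes. There were 2 of 26 at least 1.5-fold higher, against 3.13% of all genes with a value, and 0 lower, against 5.04%. The 2 were Postn, the matrix protein periostin, with 8495.3 and 16140.4, and Edn1, the endothelin precursor, with 1011.1 and 1552.3. Eln, the elastin gene, had 27759.3 and 39725.8 (0.52), and Igfbp3, a binding protein of insulin-like growth factors, 2009.4 and 2800.3 on its measured probe set (0.48). Fn1, the fibronectin gene, had 30822.1 and 34141.1 on its brightest probe set, a log2 ratio of 0.15. Another measured probe set gave -0.24, and one under the floor for sham gave at least 0.46. No probe set was named for Ccn2. The BMP targets Id1, Id2 and Id3, singled out after their values were seen, had log2 ratios of -0.12, -0.30 and -0.13. The probe sets of Id3 disagreed, at 0.03 and -0.30, so its direction was not settled.

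**Figure D3:**
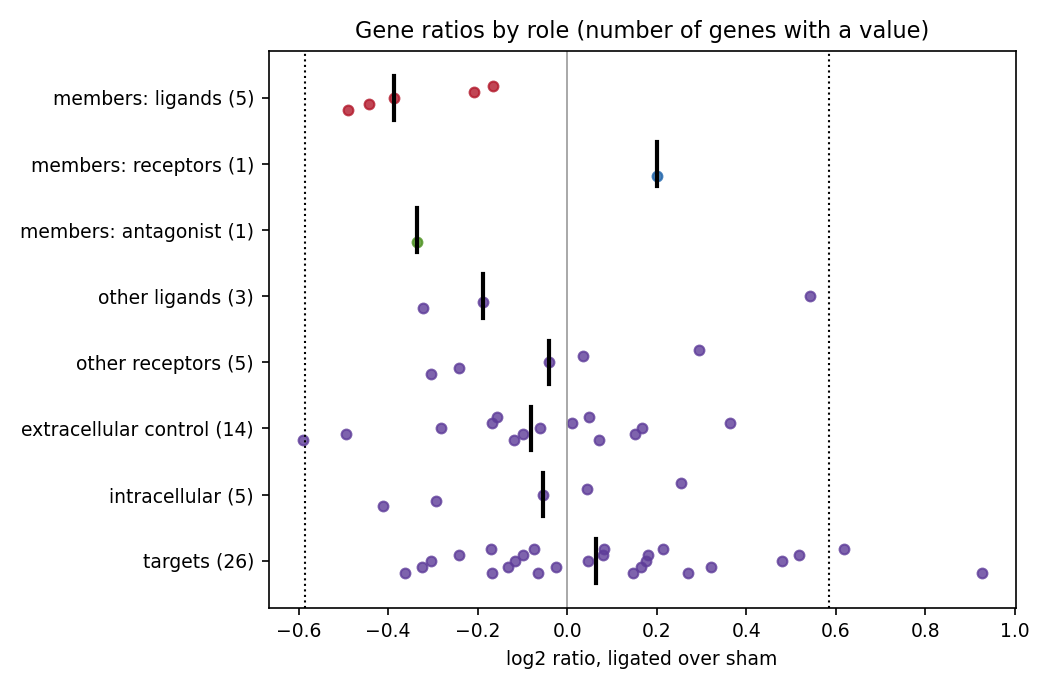
Log2 ratio of ligated over sham for each gene with a value (points), by role, with the median of each row as a black bar and 1.5-fold as dotted lines. The vertical offset of points within a row has no meaning. The member ligands have a median of -0.39, and the medians of the 5 pathway lists lie between -0.19 and 0.06.

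Markers of several cell types differed between the pools beside these genes. Their sums add the deposited signal of the brightest probe set of each gene, values under the floor included. Bright probe sets therefore weigh most in a sum, whatever the direction of the others. All 6 smooth muscle markers with a probe set were above the floor in both pools. Their summed signal was 260628 for sham and 244477 for ligated rats, with a median log2 ratio of -0.19. Of these 6, 5 were below 0, among them Kcnmb1 (-0.68), Acta2 (-0.32) and Myh11 (-0.10), and 1, Tagln (0.17), was above 0. The sums for fibroblast markers (8 of 8 with a probe set, 0 below the floor) were 339030 and 369268, with a median log2 ratio of 0.22, and those for platelet markers (2 of 4) 22032.7 and 20767.9. The sums for adipocyte markers (8 of 10, Plin1 below the floor) were 72129.4 and 103109, for macrophage markers (7 of 9, Csf1r below the floor) 44593.4 and 54953.6, and for mesothelial markers (4 of 6, Krt19, Krt8 and Wt1 below the floor) 872 and 1015.1. The adipocyte and macrophage medians were 0.34 and 0.33. Of the adipocyte genes with a value 6 were above 0 and 1 below, and of the macrophage genes 4 were above 0 and 2 below, Ptprc (-0.48) and Cd14 (-0.14). Mast cell markers (6 of 7, Kit below the floor) summed to 10955.6 and 18016.1, but their median log2 ratio was 0.10, with 3 of 5 genes above 0 and 2 below: Cma1 had 1.20 and Cpa3 0.82, and Tpsb2 had -0.37. The sums for endothelial markers (7 of 11, Kdr and Vwf below the floor) were 8011.3 and 7374.6, with a median log2 ratio of -0.29. Of the 5 endothelial genes with a value 4 were below 0 and 1 above: Icam2 had -1.13 and Nos3 -0.78, and Aqp1 had 0.65. For lymphocyte markers (4 of 7, Cd2 and Cd8a below the floor) the sums were 1503.7 and 1107.2. The lymphocyte genes with a value went both ways: Cd4 had 0.16, and Cd3d, a bound, had at most -0.94. The fibroblast and target lists share 4 genes, and the smooth muscle and target lists 3. The part of these markers in the ratios of the ligands was not tested. The arrays also differed in the noted amount of labelled cRNA, 17 µg for sham and 12.5 µg for portal hypertension, and in the fluidics module, and 8 of 9 spike-in probe sets were above 0 (log2 ratios from -0.07 to 0.88). These cannot be told apart from the operation.

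**Figure D4:**
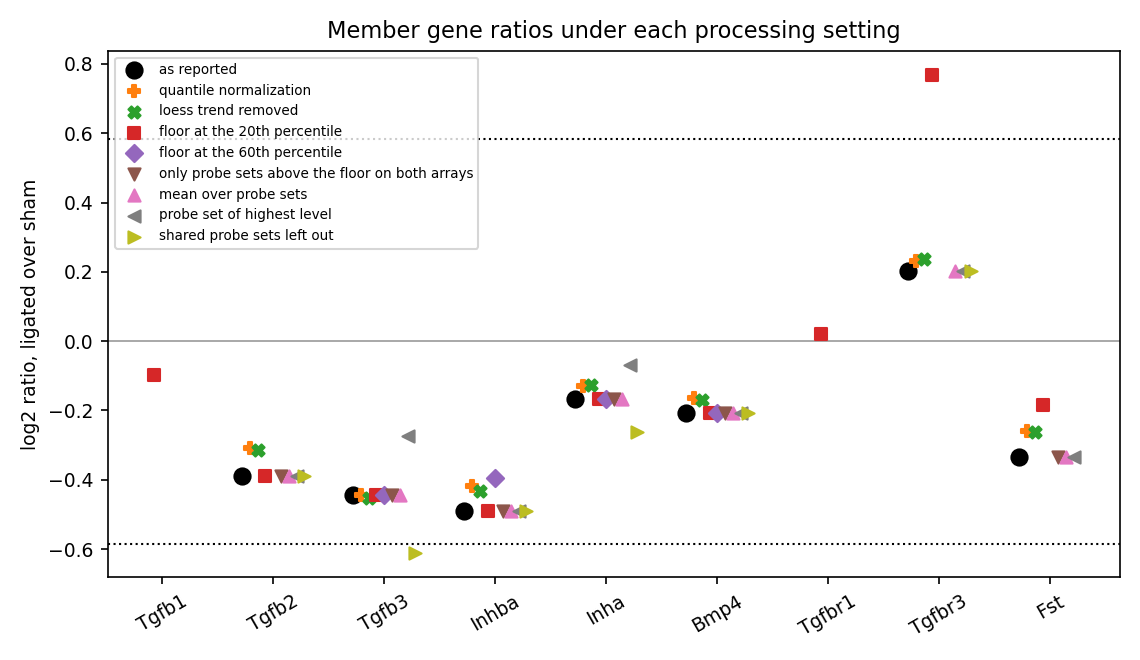
Log2 ratio of each member gene as reported (black circles) and under 8 other settings (coloured symbols), with 0 as a grey line and 1.5-fold as dotted lines. A setting under which a gene has no value has no symbol. The ligand genes lie below 0 under each setting that gives them a value, and 1.5-fold is passed by Tgfb3 with shared probe sets left out and by Tgfbr3 with the floor at the 20th percentile.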

How the data were processed

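Total RNA from pooled arteries was hybridised to 1 RG_U34A array per group, per the file headers and labels. The authors deposited a linear intensity for each probe set. How they scaled it, with which software and background correction, the sources used here do not say. After trimming 2% of values at each end the column means were 2504.33 and 2504.38, so no further scaling was applied. Control probe sets were left out. The platform annotation named 1 gene for 7018 probe sets, several for 308 and none for 1473.

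Members, gene lists and tests were chosen with earlier results of these data known. All members are named, and of each pathway list the genes past 1.5-fold, or the measured genes with the largest ratios up to 4, plus 12 genes fixed by name. Alternatives were quantile normalization, a loess trend (span 0.4), floors at the 20th and 60th percentile, and 4 ways to choose or summarise probe sets. The steps were tested on simulated data whose changes were larger than any member ratio here, so smaller changes were not covered. Python 3.11.15, pandas 2.3.3 and statsmodels 0.14.6 were used.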

Additional observations from a re-analysis of the deposited data

How the results depend on the processing

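The alternatives gave 95 values, and 91 of them moved by less than 0.30 on the log2 scale, the SD within genes, or, for a count, by no more than 1.5 times. Part of this was fixed in advance, since the choice of probe sets cannot change the ratio of a gene with 1 probe set. For members, with at most 2 probe sets, the mean equals the median, and a floor cannot move a ratio whose signals lie above it. The limit of 0.30 is larger in size than the ratios of Inha (-0.17), Bmp4 (-0.21) and Tgfbr3 (0.20). A change of sign in these could therefore pass within it. Settings that left a result without a value are not among the 95. With the floor at the 20th percentile, 1 member gene was at least 1.5-fold apart in place of 0, and 8 other pathway genes in place of 3. The member was Tgfbr3, at 0.77, which passed 1.5-fold on only 1 of its 2 probe sets. The share of all genes 1.5-fold apart went from 8.18% to 15.1% there. That floor also gave bounds to Tgfb1 (at most -0.10) and Tgfbr1 (at least 0.02), each above it in a single pool only. Without shared probe sets, 1 member gene was 1.5-fold apart, Tgfb3, at -0.61 on its remaining probe set, while its brighter probe set alone gave -0.27. Neither the floor at the 60th percentile nor the restriction to probe sets measured on both arrays leaves a receptor gene with a value, so no ligand and receptor difference could be given there. Each ligand with a value was below 0 under all 8 alternatives, and the share of all genes below 0 ranged from 48.3% after quantile normalization to 53.6% with the mean over probe sets. No paired analysis was possible because each group has 1 array.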
